A study of Mus musculus with 4 samples.

Results

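Pdk4, Angptl4, Cpt1a, Ppara, Acadl, Acadm, Ehhadh, Acot1 and Acot2 are 9 genes of the fasting response and of fatty acid oxidation, most of them known targets of the nuclear receptor PPAR-alpha, and they were followed across 4 RNA-seq libraries from mouse pancreas. They were selected on measured values of these same libraries, with the difference between the genotypes known, and were taken by symbol from the 55401 gene identifiers of a count table, and each symbol matched 1 identifier. The tissue lay beside pancreatic ductal adenocarcinoma (PDAC) tumours, and the labels tie every library to Panc02, a mouse pancreatic cancer cell line. Of the 4 libraries, 2 came from wild-type (WT) mice with such tumours and 2 from tumour-bearing mice in which CRFR1, the receptor for the stress peptide corticotropin-releasing factor, was conditionally knocked out (CRFR1-KO, below KO). The series title names CRFR1 of mast cells. The sources used here do not give the driver of the conditional deletion, the mouse strain, the age, or whether the mice had been fed or fasted. Nothing in the labels says that the libraries of a group came from separate animals, so errors measure the spread between libraries, which may be technical.

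Total counts lay between 63495457 and 71203640 per library. The targeted gene, Crhr1, had 0 counts in all 4 libraries, so it checks neither genotype label. Acinar markers such as digestive enzymes dominated every library. The library WT 1 stood apart. The summed level of 9 fibroblast markers was 498 CPM (deposited counts scaled to library size) in WT 1, against 161 to 233 CPM in the other 3 libraries, and that of 8 islet markers was 41.0 CPM in WT 1, against 239 to 297 CPM. Acinar markers summed to 370247 CPM in WT 1, against 448183 to 512965 CPM in the other 3 libraries. Of these markers, 12 of 14 were lowest in WT 1. The acinar values depend on the scaling, whose TMM factor was 1.18 in WT 1, against 0.892 to 1.03 in the other 3 libraries. A larger factor lowers CPM, so the acinar gap is not read as a lower acinar share of the deposited counts. Because WT 1 stood apart, fold changes of the 9 genes that rest on it are also given without it. In bulk tissue, fewer cells of a type and less RNA per cell cannot be told apart.

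In fasting, fatty acids released from fat activate PPAR-alpha, which pairs with a retinoid X receptor on DNA and raises genes for fatty acid uptake, transport into mitochondria, beta-oxidation and ketone body synthesis. The programme is best known in liver, where ketone bodies are made, and runs to a varying degree in muscle, heart, kidney and gut. Glucocorticoids and FoxO factors act on several of the same genes, Pdk4 and Angptl4 among them. The exocrine pancreas also oxidises fatty acids, and its acinar cells are not known as a main source of ketone bodies.

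The 9 genes did not share a genotype pattern. Acot1 and Acadl had lower values in each KO library than in each WT library, and the other 7 overlapped between the genotypes. Fitted log2 fold changes of KO over WT were negative for 5 genes and positive for 4, with a median of -0.33, beside -0.0063 over all 15131 genes tested. All 9 passed the filter on low counts. In edgeR 0 of the 9 passed an adjusted p of 0.05, where 0.0264% of all tested genes did (0.0132% lower and 0.0132% higher). An unadjusted p under 0.05 was reached by 2 of the 9, Acadl and Acot1, both lower, where 4.86% of all genes reached it (3.15% lower and 1.71% higher). DESeq2 and limma-voom called 0 of the 9, beside 0.383% and 0.0% of all genes. Both KO libraries lay below both WT libraries for 16.9% of all tested genes and above them for 16.6%. The genes had been listed with the genotype results of these same libraries known, so their genotype differences are given as descriptions, without a p of their own, and nothing is read from these counts.

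**Figure D1:**
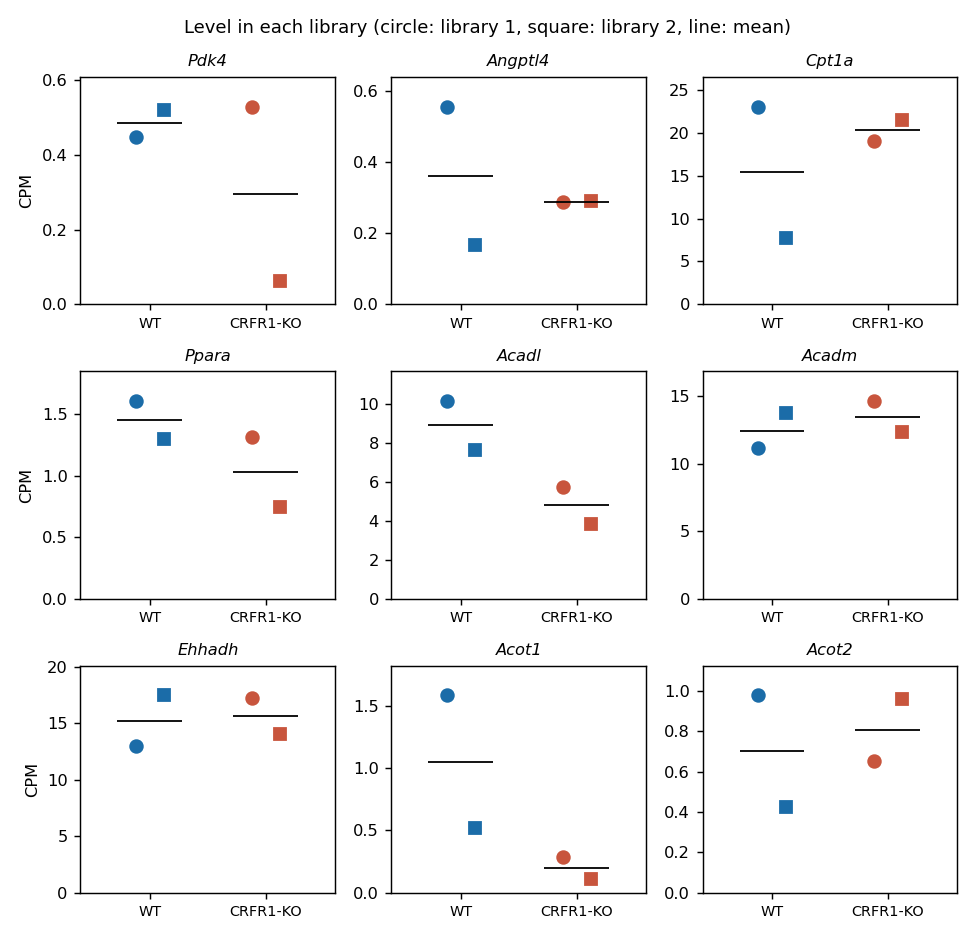
CPM (vertical axes, linear and starting at 0) of the 9 genes in each library, with WT in blue, KO in red, circles for library 1, squares for library 2 and lines for group means of 2 libraries. Acot1 and Acadl are lower in both KO libraries than in both WT libraries, Cpt1a is low in WT 2 alone, and Pdk4 is low in KO 2 alone.

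Levels compared per length of exon fell into a high and a low set. Averaged over the 4 libraries, Ehhadh stood at 5.18 CPM per kb, Acadl at 3.42, Acadm at 3.32 and Cpt1a at 2.34 CPM per kb. Next came Acot2 at 0.344, Ppara at 0.324, Acot1 at 0.159, Pdk4 at 0.111 and Angptl4 at 0.0920 CPM per kb. The lowest library of Cpt1a, at 1.01 CPM per kb, was still above the highest of Acot2, at 0.446 CPM per kb, whereas every other pair of neighbours in this order overlapped in its range over libraries. The enzymes of beta-oxidation and of the carnitine step were thus the well-measured part, while the receptor and the classic fasting-induced genes Pdk4 and Angptl4 were scarce. Of all tested genes, 14.8% had a lower mean CPM than Pdk4 and 12.4% a lower one than Angptl4, against 89.5% for Cpt1a.

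Ppara encodes the receptor itself (ENSMUSG00000022383, chromosome 15, 85734983 to 85802819, GRCm38). It had 133 and 85 counts in WT, against 82 and 49 in KO, or 1.61 and 1.30 CPM against 1.31 and 0.748 CPM. KO 1 lay between the WT libraries, so the genotypes overlapped, and KO 2 was the lowest of the 4. Group means were 1.45 ± 0.22 CPM in WT and 1.03 ± 0.40 CPM in KO (SD, n = 2 libraries each), with a log2 fold change of -0.50 and a standard error (SE) of 0.43. The log2 fold change was -0.33 without WT 1 and -0.14 without KO 2.

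Of 12 tested genes on a list of PPAR receptors and cofactors, 5 were higher and 7 lower, and 0 passed the edgeR adjustment. Ppard, the broadly expressed PPAR-delta gene, was at 11.2 ± 1.6 CPM in WT and 13.7 ± 2.8 CPM in KO. Pparg, the adipocyte and macrophage receptor, stood at 1.36 ± 0.26 and 0.834 ± 0.161 CPM (log2 fold change -0.70, SE 0.43). Med1, a Mediator subunit that PPARs recruit, was at 5.01 and 5.94 CPM in WT and 8.78 and 8.37 CPM in KO. Its log2 fold change was 0.65 (SE 0.19, edgeR adjusted p = 0.872), which did not pass. Ppargc1a, the coactivator PGC-1 alpha, was high in WT 2 (3.16 CPM) and between 0.774 and 1.95 CPM in the other libraries. Lpin1, encoding lipin 1, a PGC-1 alpha partner, had a log2 fold change of -0.38 (SE 0.23). Creb3l3, a liver-type fasting factor, had 4 counts in KO 2 and 0 elsewhere.

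Pdk4 encodes pyruvate dehydrogenase kinase 4, which shuts pyruvate out of the mitochondrial cycle when fat is burned (ENSMUSG00000019577, chromosome 6, 5483351 to 5496309, GRCm38). It had 37 and 34 counts in WT, 33 in KO 1 and 4 in KO 2, or 0.448, 0.519, 0.528 and 0.0611 CPM. The first 3 libraries lay close together, and KO 2 alone was low. An exact Poisson 95% interval on its 4 counts runs from 1.09 to 10.2 counts, which stays below the 22.7 at which the interval of KO 1 begins, and both cover counting error only. Counts of exactly 4 were over-represented in the deposited values, so what 1 count stands for is not settled. The fitted log2 fold change was -0.71 (SE 1.01). It was -2.95 without KO 1 and 0.14 without KO 2, so the genotype difference rested on that library. The other kinase genes of the family showed no such drop in KO 2. Pdk1 stood at 26.5 ± 2.9 CPM in WT, against 30.2 ± 0.8 CPM in KO, and Pdk2 at 19.1 ± 2.0 and 20.2 ± 1.3 CPM, with log2 fold changes of 0.19 (SE 0.17) and 0.08 (SE 0.17). Pdk3 was at 2.60 ± 0.06 and 2.32 ± 0.25 CPM. Of 13 tested genes for pyruvate dehydrogenase, its kinases, phosphatases and the pyruvate carrier, 6 were higher and 7 lower, 0 passed, and the median log2 fold change was -0.016. Pdhx, a structural subunit of the complex, had a log2 fold change of -0.43 (SE 0.23).

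Angptl4 encodes a secreted inhibitor of lipoprotein lipase that rises in fasting (ENSMUSG00000002289, chromosome 17, 33773750 to 33781830, GRCm38). Its 46 and 11 counts in WT, 18 and 19 in KO, came to 0.556, 0.168, 0.288 and 0.290 CPM. The KO libraries were nearly equal and lay between the WT libraries. The log2 fold change of -0.33 (SE 0.88) became 0.78 without WT 1 and -0.94 without WT 2. Lpl, the lipase that it inhibits, stood at 45.6 ± 11.8 CPM in WT, against 39.9 ± 2.1 CPM in KO (log2 fold change -0.19, SE 0.22). Of the 10 tested genes on the list of angiopoietin-like proteins and lipoprotein lipase factors, 6 were higher and 4 lower and 0 passed. Angptl8, another angiopoietin-like gene, was at 2.54 ± 0.02 and 3.41 ± 1.31 CPM. Angptl7, also of the family, stood at 0.0700 ± 0.0306 CPM in WT, against 0.236 ± 0.074 CPM in KO (log2 fold change 1.74, SE 1.07).

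Cpt1a encodes carnitine palmitoyltransferase 1A, the gate through which long-chain fatty acids enter mitochondria (ENSMUSG00000024900, chromosome 19, 3322334 to 3385733, GRCm38). It had 1906 counts in WT 1, 506 in WT 2, and 1192 and 1411 in KO, or 23.1 and 7.73 CPM in WT and 19.1 and 21.6 CPM in KO. WT 2 alone was low, and WT 1 was above both KO libraries. The WT libraries differed 2.98-fold, and 1.02% of all tested genes had a WT gap at least as large on the log2(CPM + 0.5) scale. Group means were 15.4 ± 10.8 CPM in WT and 20.3 ± 1.8 CPM in KO, with a log2 fold change of 0.40 (SE 0.44). That value was 1.39 without WT 1, where Cpt1a passed the edgeR adjustment, and -0.18 without WT 2. Leaving out a library leaves WT a lone library that is assumed to vary as the others do.

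Among the other carnitine shuttle genes, WT 2 was the lowest library for 1 of 5 tested, Cpt1c. Cpt2, which completes the transfer inside mitochondria, lay between 6.24 and 7.47 CPM in all 4 libraries (log2 fold change -0.06, SE 0.19). Slc25a20, the carnitine-acylcarnitine carrier, was at 2.09 ± 0.66 and 1.67 ± 0.23 CPM. The muscle form Cpt1b had 3 counts in KO 1 and 0 in the other libraries, and the brain form Cpt1c stood at between 0.168 and 0.611 CPM. Of the 5 tested genes of the shuttle other than Cpt1a, 2 were higher and 3 lower, and 0 passed.

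Acadl encodes long-chain acyl-CoA dehydrogenase, an enzyme of the first step of mitochondrial beta-oxidation (ENSMUSG00000026003, chromosome 1, 66830839 to 66863277, GRCm38). It had 840 and 501 counts in WT, against 360 and 252 in KO, or 10.2 and 7.65 CPM against 5.76 and 3.85 CPM. Both KO libraries were below both WT libraries. Group means were 8.91 ± 1.77 and 4.80 ± 1.35 CPM (SD, n = 2 libraries each), with a log2 fold change of -0.89 (SE 0.26), which was -0.67 without WT 1, -1.08 without WT 2, -1.21 without KO 1 and -0.62 without KO 2. Acadl kept its sign in all 16 alternatives of scaling, filter, test and library set.

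Acadm encodes the medium-chain enzyme of the same step (ENSMUSG00000062908, chromosome 3, 153922357 to 153944632, GRCm38) and was steady. Its 921, 902, 916 and 807 counts in WT 1, WT 2, KO 1 and KO 2 came to 11.1, 13.8, 14.7 and 12.3 CPM. The log2 fold change was 0.12 (SE 0.19), and -0.0029 when scaled on library totals. Because both genes were counted in the same libraries, their count ratio needs no scaling. There were 0.912 and 0.555 Acadl counts per Acadm count in WT, against 0.393 and 0.312 in KO, so the ratio also separated the genotypes.

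The other genes of mitochondrial beta-oxidation lay close together. Of 16 tested, 7 were higher and 9 lower, 0 passed, and the median log2 fold change was -0.010. Acadvl, the very-long-chain dehydrogenase, had a log2 fold change of 0.017 (SE 0.16) and lay between 11.6 and 12.2 CPM in all 4 libraries. Acads, the short-chain enzyme, was at 6.67 ± 0.29 and 8.35 ± 1.22 CPM (log2 fold change 0.32, SE 0.19). Hadha and Hadhb, the subunits of the trifunctional protein, had log2 fold changes of 0.15 (SE 0.23) and -0.11 (SE 0.17), and Eci2, an enoyl-CoA isomerase, of -0.31 (SE 0.18).

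Ehhadh encodes the peroxisomal bifunctional enzyme (ENSMUSG00000022853, chromosome 16, 21761287 to 21787807, GRCm38) and was the most abundant of the 9 per length. It had 1073 and 1145 counts in WT, against 1078 and 920 in KO, or 13.0, 17.5, 17.2 and 14.1 CPM. The genotypes overlapped, with a log2 fold change of 0.04 (SE 0.21), and -0.073 on library totals. Its count ratio to Acadm stayed between 1.14 and 1.27 in all 4 libraries. Among 11 other tested peroxisomal genes 5 were higher, 6 lower and 0 passed. Abcd3, a peroxisomal fatty acid transporter, was at 18.8 ± 1.5 and 25.1 ± 2.0 CPM (log2 fold change 0.41, SE 0.17), which did not pass (edgeR adjusted p = 1.0, rounded), and its relative Abcd2 at 0.419 ± 0.074 and 0.119 ± 0.125 CPM.

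**Figure D2:**
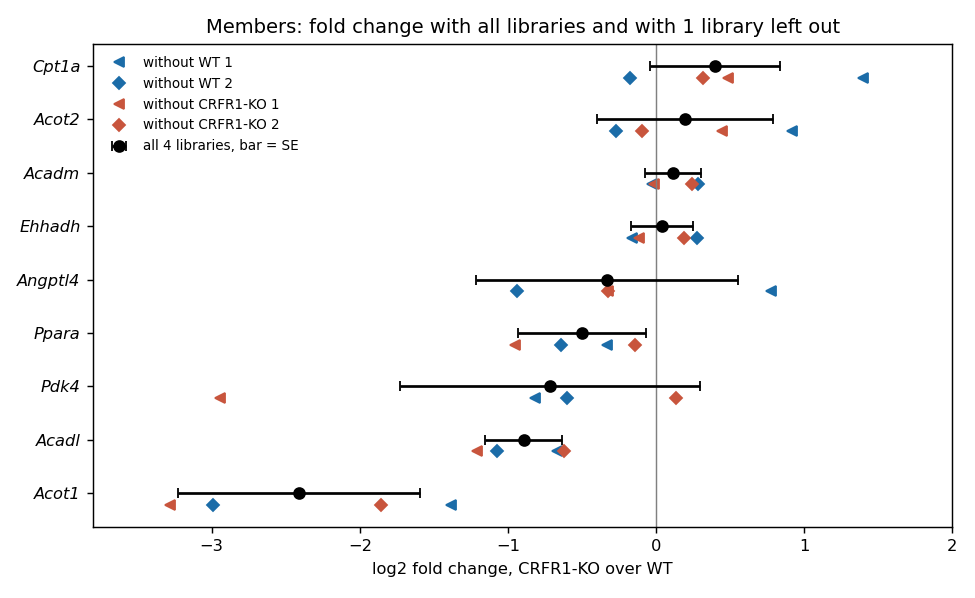
Log2 fold change of KO over WT (horizontal axis) for each of the 9 genes, with all 4 libraries in black (bar = SE) and with 1 library left out in blue (a WT library) or red (a KO library). Acot1, Acadl and Ppara stay below 0 in each case, whereas Pdk4 spans -2.95 to 0.14 and Cpt1a -0.18 to 1.39.

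Acot1 and Acot2 encode acyl-CoA thioesterases that release free fatty acids from coenzyme A, Acot1 in the cytosol and Acot2 in mitochondria. They are neighbours on chromosome 12, Acot2 at 83987861 to 83993873 (ENSMUSG00000021226) and Acot1 at 84009490 to 84018371 (ENSMUSG00000072949, GRCm38). Their coding sequences matched at 95.2% of 1239 aligned bases. In GENCODE M21 transcripts, 12.4% of the 100-base words of Acot1 and 17.1% of those of Acot2 also occurred in another gene. The share was 0.0% for each of the other 7 genes. With 50-base words it was 19.2% for Acot1, 27.7% for Acot2 and at most 2.04%, in Acadm, for the other 7. The sources used here do not say how the counting program assigned such reads, so the split between the 2 genes is uncertain. The windows of 90 coding bases within 1 exon where the genes are most and least alike are shown, with bases that differ in capitals, since they show where reads can and cannot be told apart. They lie at chr12:84014379-84014468 and chr12:83990494-83990583 (exon 2, 90 of 90 bases identical) and at chr12:84016916-84017005 and chr12:83992638-83992727 (exon 3, 76 of 90 identical), all on the plus strand of GRCm38.
Acot1 and Acot2, most alike: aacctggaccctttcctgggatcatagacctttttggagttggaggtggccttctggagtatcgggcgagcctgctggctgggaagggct
Acot1 least alike: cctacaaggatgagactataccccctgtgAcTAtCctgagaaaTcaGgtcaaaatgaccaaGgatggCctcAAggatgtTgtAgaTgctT
Acot2 least alike: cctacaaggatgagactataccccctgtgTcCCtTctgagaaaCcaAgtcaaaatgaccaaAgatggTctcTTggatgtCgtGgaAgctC

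Acot1 had 131 and 34 counts in WT, against 18 and 7 in KO, or 1.58 and 0.519 CPM against 0.288 and 0.107 CPM. Both KO libraries were below both WT libraries, and WT 1 was 3.05 times WT 2. The log2 fold change was -2.41 (SE 0.82), which was -1.39 without WT 1 and -3.28 without KO 1. Acot2 had 81 and 28 counts in WT, against 41 and 63 in KO, or 0.980 and 0.428 CPM against 0.656 and 0.962 CPM. The genotypes overlapped, with a log2 fold change of 0.20 (SE 0.60) that was 0.92 without WT 1 and -0.27 without WT 2.

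The ratio of Acot1 to Acot2 counts was 1.62 and 1.21 in WT and 0.439 and 0.111 in KO, so Acot1 had more counts than Acot2 in both WT libraries and fewer in both KO libraries. Summed over both genes, the counts were 212 and 62 in WT, against 59 and 70 in KO, or 2.56, 0.947, 0.944 and 1.07 CPM. The sum was high in WT 1 and nearly equal in the other 3 libraries, with a log2 fold change of -0.81 (SE 0.52) that was 0.09 (SE 0.54) without WT 1. The separation of Acot1 by genotype was therefore not seen in the sum of the pair. Of the 6 other tested acyl-CoA thioesterase genes, 3 were higher and 3 lower and 0 passed. Acot6 stood at 1.07 ± 0.24 CPM in WT, against 0.828 ± 0.017 CPM in KO, and Acot7 at 3.14 ± 0.81 and 3.75 ± 0.53 CPM. Acot3 had 0 counts in all libraries and Acot4 had 4 in each KO library and 0 in WT. Both share exons with other gene models.

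**Figure D3:**
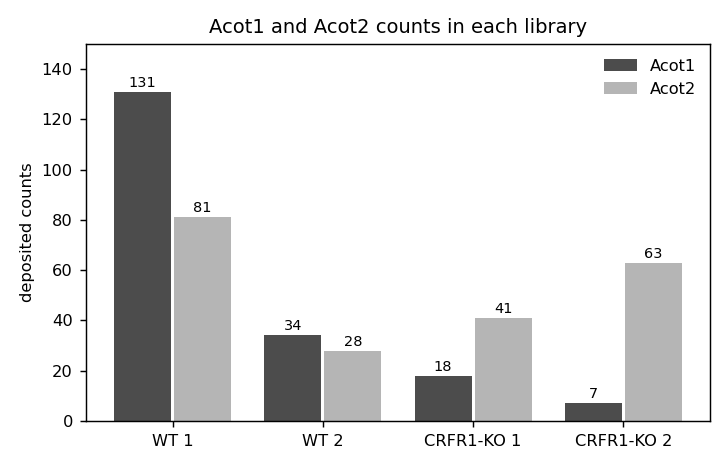
Deposited counts (vertical axis, from 0) of Acot1 in dark grey and Acot2 in light grey in each of the 4 libraries. Acot1 exceeds Acot2 in WT 1 (131 against 81) and WT 2 (34 against 28) and is below it in KO 1 (18 against 41) and KO 2 (7 against 63).

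Ketone body synthesis is the end point of the fasting programme in liver. None of the 9 encodes an enzyme that makes ketone bodies. On a list of genes for ketone body synthesis and use, Bdh1, which makes the circulating ketone body, was at 1.66 ± 0.42 and 1.27 ± 0.58 CPM, and Oxct1, which uses ketone bodies, at 14.7 ± 2.8 and 17.2 ± 2.8 CPM. Acat1, which acts at both ends of the pathway, was at 34.4 ± 0.9 and 27.5 ± 0.0161 CPM (log2 fold change -0.32, SE 0.16). Of 8 tested genes, 2 were higher and 6 lower, and 0 passed in edgeR.

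Cd36, a fatty acid translocase also found on macrophages and endothelium, stood at 10.8 and 11.9 CPM in WT and, in KO, at 5.49 and 7.55 CPM. Its log2 fold change was -0.80 (SE 0.21, edgeR adjusted p = 0.801). Of 8 tested uptake and activation genes, 4 were higher and 4 lower and 0 passed. Acsl6, an acyl-CoA synthetase, was at 0.481 ± 0.098 and 1.02 ± 0.41 CPM. Plin4, a droplet coat gene, was at 5.67 CPM in WT 2 and between 0.336 and 0.774 CPM in the other 3 libraries (log2 fold change -2.93, SE 0.87, -0.87 without WT 2, and called by edgeR without WT 1). Plin2, a droplet coat gene that PPARs induce, stood at 3.14 ± 1.35 and 2.35 ± 0.65 CPM, Fgf21, the fasting hormone also made by acinar cells, at 3.52 ± 1.42 and 4.29 ± 2.60 CPM, and Ucp2, a mitochondrial carrier, at 20.7 CPM in WT 1 and between 8.02 and 11.9 CPM elsewhere. The log2 fold change of Ucp2 was -0.38 (SE 0.40), and 0.46 without WT 1. G0s2, an inhibitor of fat breakdown, had a log2 fold change of -0.62 (SE 0.36), and Txnip, which restrains glucose uptake, of 0.0016 (SE 0.23). Of the 14 tested genes on this list of further PPAR-alpha and fasting targets, 7 were higher, 7 lower and 0 passed. Microsomal omega-oxidation genes of the Cyp4a family, among the most inducible PPAR-alpha targets in mouse liver, had 4 counts of Cyp4a14 in WT 1, just above a floor of 3 counts, and otherwise 0 counts for all 6 genes in all libraries.

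Over all 12 lists together, 146 further genes were listed, 120 were tested, 51 were higher and 69 lower. EdgeR called 0 of the 120, beside 0.0264% of all tested genes. An unadjusted edgeR p under 0.05 was reached by 9 of the 120, beside 4.86% of all tested genes. As the lists were chosen with earlier results known, nothing is read from these counts. The groups did not overlap for 36 of the 120, or 30.0%, against 33.5% of all tested genes. The median log2 fold change was -0.034.

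**Figure D4:**
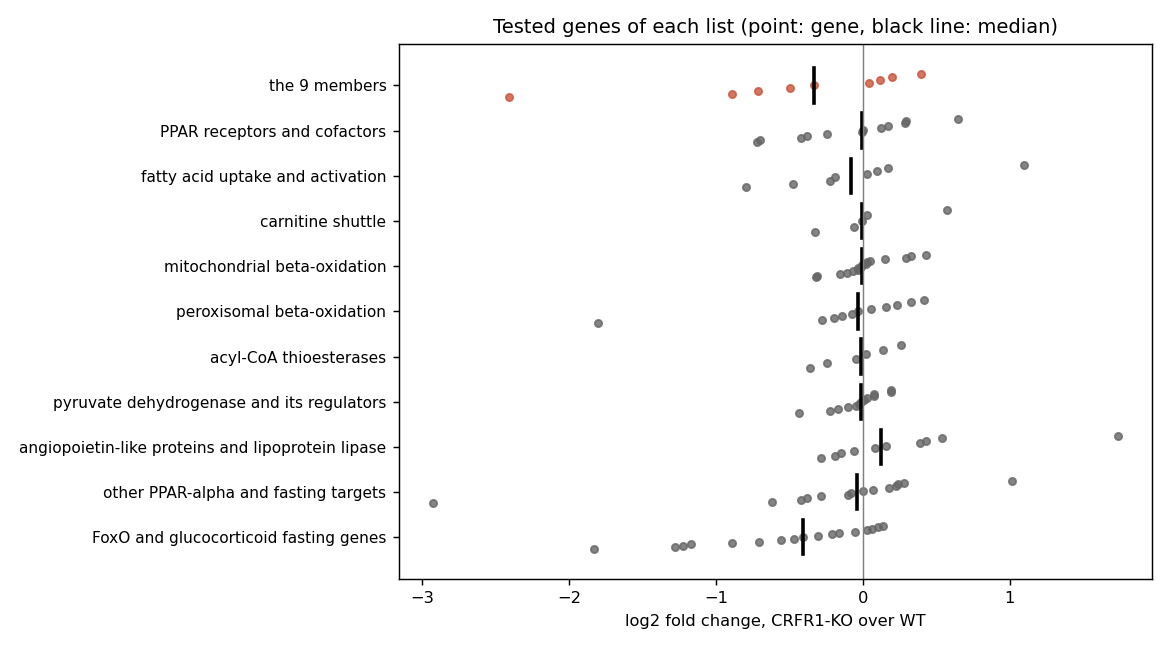
Log2 fold change of KO over WT (horizontal axis) of each tested gene, by list (the ketone body list is not drawn), with the 9 genes in red at the top and black lines at list medians. The medians lie near 0 for the beta-oxidation lists, at -0.33 for the 9 genes and at -0.41 for the FoxO and glucocorticoid list.

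FoxO factors and glucocorticoids also drive Pdk4 and Angptl4 in fasting. Tested genes of this arm were mostly lower in KO and mostly highest in WT 2. Of 17 tested genes, 4 were higher and 13 lower, 0 passed, and the median log2 fold change was -0.41. That median became -0.011 without WT 2, with 9 of 17 lower. It was -0.64 without WT 1, -0.56 without KO 1 and -0.32 without KO 2. Both KO libraries lay below both WT libraries for 5 of the 17 and above them for 0. The shares over all tested genes were 16.9% and 16.6%. WT 2 held the highest level for 10 of the 17, where it did so for 27.5% of all tested genes. Fkbp5, a glucocorticoid-induced chaperone gene, had 331 and 755 counts in WT, against 167 and 258 in KO, and its 11.5 CPM in WT 2 stood apart (log2 fold change -1.23, SE 0.47, -0.27 without WT 2, and called by edgeR without WT 1). Ddit4, a stress-induced brake on mTOR, had the smallest p of the list, at 10.8 and 12.8 CPM in WT and 3.87 and 6.57 CPM in KO. Its log2 fold change was -1.17 (SE 0.27, edgeR adjusted p = 0.718). Trib3, a stress-induced pseudokinase gene, had a log2 fold change of -1.28 (SE 0.44). Over the alternatives the log2 fold change stayed between -1.60 and -0.84 for Ddit4 and between -1.65 and -0.79 for Trib3. In WT 2, where this arm was highest, Cpt1a, Angptl4 and Acot2, 3 of the 9 genes, were each at their lowest level of the 4 libraries. WT 2 also held the lowest level of 28.4% of all tested genes. Ehhadh was at its highest level in WT 2, and Pdk4 was within 0.448 to 0.528 CPM as in WT 1 and KO 1. Whether this arm acts on the 9 genes here was not tested.

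**Figure D5:**
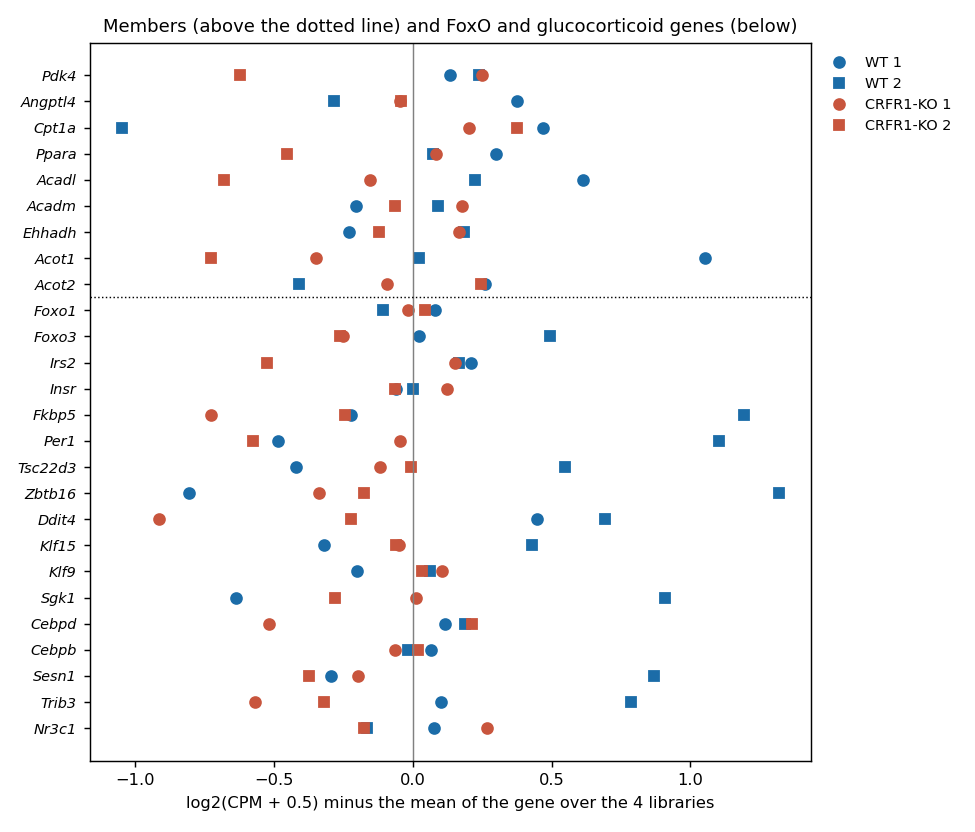
Level of each gene in each library as log2(CPM + 0.5) minus the mean of that gene over the 4 libraries (horizontal axis), with the 9 genes above the dotted line and the 17 FoxO and glucocorticoid genes below, WT in blue, KO in red, circles for library 1 and squares for library 2. WT 2 lies furthest right for 10 of the 17 lower genes. Of the 9 genes, it lies furthest left for Cpt1a, Angptl4 and Acot2 and furthest right for Ehhadh.

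Among the 9, WT 1 held the highest level of 6 (Angptl4, Cpt1a, Ppara, Acadl, Acot1 and Acot2), where it held the highest level of 26.1% of all tested genes, and KO 2 held the lowest of 4 (Pdk4, Ppara, Acadl and Acot1), where it did so for 22.7%. Markers of several cell types moved with genotype and with WT 1, and not all in the same direction. Fitted levels were higher in KO for 13 of 14 acinar, 7 of 8 islet and 5 of 8 endothelial markers. The sums of those acinar, islet and endothelial lists overlapped between the genotypes. Singly, 6 of 14 acinar, 2 of 8 islet and 3 of 8 endothelial markers were higher in both KO libraries than in both WT libraries. The share over all tested genes was 16.6%. All 8 macrophage markers were highest in WT 1, with a summed level of 125 CPM in WT 1, 93.0 in WT 2, 45.5 in KO 1 and 72.3 CPM in KO 2. Fibroblast markers summed to 498, 233, 161 and 180 CPM in the same order and were lower in KO for 8 of 9, and 8 duct markers summed to 183, 113, 81.5 and 84.2 CPM. All 3 sums were higher in both WT libraries than in both KO libraries, as Acadl and Acot1 were. Gene by gene, this held for 6 of 8 macrophage, 8 of 9 fibroblast and 5 of 8 duct markers. It held for 16.9% of all tested genes. The duct keratin gene Krt19 was higher in both KO libraries. The part of these cell types in the differences of Acadl and Acot1 was not tested.

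Several defining markers of the tissues best known for this programme were at or near 0. Of 10 adipocyte markers, Lep was at 0 in every library, Adipoq had 8 counts in WT 2 and 0 elsewhere, Plin1 had 4 in WT 1 and 0 elsewhere, and the summed level lay between 10.7 and 13.8 CPM, most of it Fabp4, which endothelium and macrophages also express. Of 12 hepatocyte markers, Serpina1a, Cyp3a11 and Cps1 were at 0, and albumin (Alb) had 57 and 10 counts in WT, against 16 and 85 in KO. Their summed level of 11.9 to 20.05 CPM included Ttr, which islet cells also express. Of 10 skeletal muscle markers 5 were at 0, and the sum was at most 0.886 CPM. Of 8 brown adipocyte markers, Cidea and Elovl3 were at 0 and Ucp1 had 4 counts in KO 1 alone. The summed level of the 8 lay between 5.53 and 9.96 CPM and included Ppargc1a.

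RefSeq promoter windows of GRCm38.p6, from 250 bases before to 50 after the start, were held for 8 of the 9 genes, all but Angptl4. The PPAR direct repeat, 2 copies of AGGNCA spaced by 1 base and searched on both strands as were the other motifs, occurred in 0 of the 8 windows and in 0.381% of all 32851 windows of this length. Its single hexamer AGGTCA, which the repeat can contain, occurred in the windows of Cpt1a and Acadm and in 16.3% of all windows. The glucocorticoid hexamer AGAACA occurred in the window of Acot1 and in 19.0% of all. The FoxO motif GTAAACA (3.65% of all windows) and the E-box CACGTG (7.15%) occurred in 0 of the 8. A match is a description of letters, and sites outside these windows were not searched. The 250 bases upstream are shown for the 3 genes with a match and for Acot2, to set it beside its neighbour Acot1, with matches in capitals on the strand of the gene: chr19:3323051-3323300 (plus strand), chr3:153944644-153944893 (minus strand), chr12:84009252-84009501 (plus strand) and chr12:83987611-83987860 (plus strand). Counted from the start, the matches begin at -94 in Cpt1a, -249 in Acadm and -171 in Acot1, each as the reverse complement of the motif.
Cpt1a promoter: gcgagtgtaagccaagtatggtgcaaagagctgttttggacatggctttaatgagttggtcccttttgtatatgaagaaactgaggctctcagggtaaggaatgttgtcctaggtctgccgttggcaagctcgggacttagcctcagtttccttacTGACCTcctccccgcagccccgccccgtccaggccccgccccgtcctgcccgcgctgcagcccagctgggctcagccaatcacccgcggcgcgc
Acadm promoter: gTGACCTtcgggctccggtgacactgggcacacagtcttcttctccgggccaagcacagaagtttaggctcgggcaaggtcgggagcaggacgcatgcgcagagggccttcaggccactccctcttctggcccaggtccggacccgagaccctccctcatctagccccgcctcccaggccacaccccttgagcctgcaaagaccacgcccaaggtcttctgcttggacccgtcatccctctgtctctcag
Acot1 promoter: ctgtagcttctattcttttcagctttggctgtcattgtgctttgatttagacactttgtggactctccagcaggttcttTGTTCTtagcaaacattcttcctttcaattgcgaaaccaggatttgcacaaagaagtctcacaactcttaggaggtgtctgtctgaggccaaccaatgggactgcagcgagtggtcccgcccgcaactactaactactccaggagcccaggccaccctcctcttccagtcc
Acot2 promoter: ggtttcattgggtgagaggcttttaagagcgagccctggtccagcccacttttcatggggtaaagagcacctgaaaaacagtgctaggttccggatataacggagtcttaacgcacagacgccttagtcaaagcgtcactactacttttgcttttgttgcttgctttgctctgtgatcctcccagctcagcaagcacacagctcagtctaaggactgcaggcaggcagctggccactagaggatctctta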

How the data were processed

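RNA was poly(A)-selected and libraries were made with a dUTP-marked second strand, per the labels' protocols. The deposited file held whole-number counts per Ensembl gene, without normalization. The tools named, per the submitters' processing notes, are edgeR, DESeq2 and FastQC, with no versions or roles. The sources used here do not give aligner, counting program, strand setting or build. Columns were tied to libraries by library name, and 0 columns were left without a sample. Symbols, exon lengths and positions came from GENCODE M21 (GRCm38), and 55141 identifiers had a symbol. None of the 9 genes shared exon bases with another model.

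The knockout (CRFR1-KO, KO) was compared with WT by the two-sided quasi-likelihood F test of edgeR 4.0.16 under R 4.3.3, after filterByExpr and TMM scaling, with Benjamini-Hochberg adjustment over 15131 genes. SEs were derived from the F statistic. CPM used scaled library sizes, and levels per length divide by exon length. An exact permutation test of 2 against 2 libraries cannot go below p = 0.333, so none was run. DESeq2 1.42.0 and limma 3.58.1 served as alternatives. The test was tried on simulated data for this comparison (3 simulations of 15131 genes). It recovered 23.9% of the 2-fold changes and 77.0% of the 4-fold changes, and called 0.0278% of the rest. Each simulated gene had only the spread typical of its abundance, with no library standing apart. The rates pool genes of all abundances, so they may overstate recovery here, above all for scarce genes. Deposited counts of 4 and 8 were more frequent than their neighbours (913 genes with 4 counts against 349 with 3 in WT 1), so what 1 count stands for is not settled. Coding sequences were aligned with Biopython 1.88.

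The 9 genes and all lists were chosen with earlier results of these data known. Named genes were the 9, a fixed set of pathway genes, and the 2 tested genes with the smallest p of each list, of which a few are not reported here. Summing Acot1 and Acot2, and leaving libraries out of that sum, were added after seeing the data.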

Additional observations from a re-analysis of the deposited data

How the results depend on the processing

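The replicate numbers share no stated source, and deviations of same-numbered libraries from their group means did not correlate across 15131 genes (Pearson's r = -0.0662, a description). With the replicate block, 7 genes were called in place of 4 and the median log2 fold change of the 9 genes was -0.109. Over all genes the calls were 58 in DESeq2, 0 in limma-voom (692 at an unadjusted p under 0.05) and 0 with exon-sharing models summed (edgeR, 701 unadjusted). Leaving out 1 library gave 0 to 69 calls, a median of the 9 genes between -0.599 and -0.0948, and 0 to 1 of the 9 called. That 1 was Cpt1a without WT 1 (edgeR adjusted p = 0.0465 at a log2 fold change of 1.39), and in its other 15 alternatives it was not called. Without WT 1, WT 2, KO 1 and KO 2 the number of the 9 lower was 6, 7, 7 and 5.

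Scaling on library totals moved the median of all genes to -0.133 and that of the 9 to -0.543, with 7 lower. A filter of 1 CPM in 2 libraries kept 5 of the 9 (median 0.0316, 2 lower), and counts divided by 4 kept 6 (median 0.0762, 2 lower), since the scarce genes were then not tested. Acadl, Acot1 and Ppara kept their sign in each alternative that tested them. Pdk4, Angptl4, Cpt1a and Acot2 changed sign when a single library was left out, and Acadm and Ehhadh did so too and on library totals. At the depth of these libraries a floor of 3 counts corresponds to 0.0363 to 0.0480 CPM, close to the 0.0611 CPM of Pdk4 in KO 2.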

Other observations

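The library profiles most like those of the scarce fasting genes were sought among 5748 other genes with a mean of at least 5 CPM, by root-mean-square difference of centred log2(CPM + 0.5) over the 4 libraries. Nearest to Pdk4 were Plagl1 (difference 0.0451), Crebrf (0.0605) and Fnip2 (0.0797). Plagl1, a zinc finger gene, stood at 11.8, 13.4, 14.0 and 7.27 CPM in WT 1, WT 2, KO 1 and KO 2, lowest in KO 2 as Pdk4 was, but by a far smaller factor. Nearest to Angptl4 were Hltf (0.0245), Emp1 (0.0294) and Rnf31 (0.0363). Emp1, an epithelial membrane protein gene, was at 13.9, 8.11, 9.97 and 9.93 CPM in the same order, high in WT 1 and low in WT 2. With 4 libraries and so many genes, close profiles are easy to find, and the pseudocount flattens the profiles of both scarce genes. Among the 9 genes themselves, Acadm and Ehhadh were the closest pair (0.0571), and Cpt1a and Acot1 the farthest (0.866).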
